A study of Arabidopsis thaliana with 41 samples.

Results

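BABY BOOM (BBM), the PLETHORA genes PLT1, PLT2, PLT3, PLT5 and PLT7, the peptide genes RGF1 and RGF2 and the homeobox gene WOX5 were followed by RNA-seq in developing Arabidopsis thaliana embryos. These 9 genes were taken by locus identifier from the deposited expression table, in which 33544 genes had at least 1 transcript that matched or extended a reference transcript. Embryos were dissected out of seeds of wild-type plants and of the val1 mutant. The mutation is in VAL1, which encodes a B3 domain protein known as a repressor of seed genes, and the labels name neither the allele nor the genetic background. There were 41 libraries in 14 groups, with ages of 7, 8, 10, 12, 13, 15 and 17 days as labelled, and each group had 3 libraries except wild type at day 17, which had 2. The series design speaks of biological and of technical replicates without saying which libraries are which, so p-values measure the spread between libraries and part of that spread may be technical.

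The 9 genes were selected on their family, with the val1 minus wild type differences of these libraries already known. Differences between genotypes are therefore given for them as values with standard errors and without a test. Changes with age inside a genotype were not the basis of the choice and were tested. They use the same libraries as the known differences, so their p-values are not fully independent of the choice. All 9 genes passed the filter on low values, as did 18389 genes in all. Of the 9 genes 0 passed through val1 alone and 0 through wild type alone. RGF1 reached 1 FPKM in the fewest libraries, 3 of wild type and 8 of val1. Nothing is read from the passing itself.

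PLETHORA proteins and BBM are AP2 domain transcription factors that set up and maintain the root stem cell niche, and overexpressed BBM is known for inducing embryos on vegetative tissue. RGF genes encode small secreted peptides, sulfated on tyrosine by the enzyme TPST and perceived by leucine-rich repeat receptor kinases, which raise PLETHORA protein levels in the root meristem. WOX5 marks the quiescent centre, the group of rarely dividing cells around which the root stem cells lie. VAL1 is known to bind the RY motif, written CATGCA, through its B3 domain and to recruit Polycomb silencing.

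The promoter windows of the genes whose levels differed most between genotypes are shown to give the position of the RY motif. The 250 bases before the gene start of RGF2 and of WOX5 are in lower case, with CATGCA or its reverse complement TGCATG in capitals, read 5′ to 3′ on the strand of the gene. For RGF1, whose nearest match lay further out, a window of 60 bases around it is given. Sequences and positions are those of the RefSeq annotation of build TAIR10.1. The deposited tables hold no coordinates, and the submitters' processing notes name TAIR10.
RGF2, chr1:4668116-4668365, plus strand: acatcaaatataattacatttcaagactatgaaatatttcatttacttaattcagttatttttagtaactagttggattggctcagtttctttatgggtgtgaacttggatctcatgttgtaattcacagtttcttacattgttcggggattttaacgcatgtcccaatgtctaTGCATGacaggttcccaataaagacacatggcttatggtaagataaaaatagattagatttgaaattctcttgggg
WOX5, chr3:3527030-3527279, plus strand: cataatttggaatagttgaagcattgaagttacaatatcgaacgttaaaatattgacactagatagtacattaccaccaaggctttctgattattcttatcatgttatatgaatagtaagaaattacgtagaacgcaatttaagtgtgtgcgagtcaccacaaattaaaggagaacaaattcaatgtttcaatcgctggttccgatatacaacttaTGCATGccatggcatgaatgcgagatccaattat
RGF1, chr5:24467762-24467821, minus strand: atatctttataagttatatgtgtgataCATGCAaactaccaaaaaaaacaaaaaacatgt
The first base of the nearest match lay 76 bases before the start of RGF2, 34 bases before that of WOX5 and 579 bases before that of RGF1. Within 1000 bases, further matches lay at 919 bases for WOX5, at 654, 760 and 776 for PLT2 and at 677 for BBM. They also lay at 20 bases for PLT3 and at 46 and 623 for PLT5. In the window from 250 bases before to 50 bases after the gene start, 4 of the 9 genes held the motif on either strand, namely RGF2, WOX5, PLT3 and PLT5, beside 9.718% of 27443 promoters of the annotation. In the 1000 bases before the start, 7 of the 9 held it, beside 32.212% of all promoters, and PLT1 and PLT7 did not. No other motif was searched. These matches describe letters and were not set against binding data.

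In val1 embryos RGF2 climbed from near 2 to above 60 scaled FPKM between days 8 and 13, while in wild type it stayed under 5 and was at or near 0 from day 15. WOX5 fell to low values by day 10 in wild type and was still near 3 at day 13 in val1. PLT2 was somewhat higher in val1 on most days, BBM was higher in val1 at day 17, and the average differences of PLT1, PLT3, PLT5 and PLT7 were small. Values are fragments per kilobase of transcript relative to the size of the library (FPKM), which the authors deposited, summed per gene and rescaled between libraries, and log2 differences were taken after adding 0.5, which understates changes of low genes. FPKM is a per-length scale, so levels can be set against each other between genes. In whole embryos, fewer cells that express a gene and less RNA per cell cannot be told apart.

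RGF2 (AT1G13620, chr1:4668366-4669471, plus strand, 2 to 3 exons in RefSeq) encodes a root meristem growth factor peptide. At day 7 its wild-type libraries read 0.693, 0.914 and 0.625 scaled FPKM and its val1 libraries 1.82, 2.30 and 1.09. At day 8 the ranges of the genotypes met, at 1.05 to 2.20 in wild type and 1.85 to 2.51 in val1. The gene was thus low in both genotypes in the youngest embryos, with val1 above wild type without overlap at day 7 and not at day 8.
At day 10 the wild-type libraries read 2.51, 3.14 and 2.91 scaled FPKM and the val1 libraries 12.2, 20.8 and 11.6. At day 12 they read 2.49, 4.86 and 2.46 in wild type against 42.5, 35.2 and 47.4 in val1. At day 13 they read 2.48, 0.731 and 3.51 in wild type against 67.4, 68.6 and 56.2 in val1. Every val1 library lay above every wild-type library on these days, and the means differed 5.22-fold, 12.8-fold and 28.6-fold.
At day 15 wild type was listed at 0 in 2 libraries and at 0.0687 in the third, whereas val1 read 43.3, 16.9 and 60.1. At day 17 both wild-type libraries were listed at 0 and val1 read 6.43, 1.97 and 11.8. The val1 libraries of these ages were spread widely, with replicate 2 the lowest on both days, and no fold is given against a group at or near 0.
The log2 difference between val1 and wild type was 3.53 (SE 0.42) at day 12, 4.71 (SE 0.42) at day 13 and 6.101 (SE 0.42) at day 15, and averaged 3.03 (SE 0.16) over the 7 ages. With wild type at or near 0 on the last 2 ages, the added constant sets these values: with 0.1 in place of 0.5 the difference was 8.21 at day 15, 5.77 at day 17 and 3.78 on average, and with 1 it was 5.15 at day 15 and 2.71 at day 17. Without val1 replicate 2 the day 15 difference was 6.66, and without it at day 17 the difference there went from 3.57 to 4.22. In the order of the 14 groups, val1 at day 13 had the highest mean and did not overlap val1 at day 12, but val1 at day 15, at 16.9 to 60.1, overlapped both.
With age, RGF2 rose from day 7 to day 12 in val1 by a log2 of 4.26 (SE 0.42, limma adjusted p = 8.82e-11) and in wild type by 1.55 (SE 0.42, limma adjusted p = 0.00129). From day 12 to day 17 it fell by 2.82 in val1 and by 2.86 in wild type on the log2 scale (limma adjusted p = 3.25e-07 and 1.91e-06), the latter down to libraries listed at 0, so that the fitted value depends on the added 0.5. The wild-type rise lost its call without rescaling, at 0.66 (limma adjusted p = 0.133).

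RGF1 (AT5G60810, chr5:24466509-24467215, minus strand) encodes a second peptide of the family and had the lowest peak of the 9 genes, with no more than 1.96 scaled FPKM in any library. Its wild-type libraries read 0.0476, 0.297 and 0.0183 at day 7, 1.30, 0.597 and 0.660 at day 8, and 0.101, 0.0875 and 0 at day 13. Its val1 libraries read 0.554, 0.459 and 0.451 at day 7, 0.176, 0.707 and 1.06 at day 8, and 0.953, 1.96 and 1.55 at day 13. At day 8 the genotypes overlapped, and at days 7 and 13 they did not.
At day 15 the 3 wild-type libraries were listed at 0 and val1 read 0.131, 0.570 and 0.897. At day 10 val1, at 0.903 to 1.49, also lay above wild type, at 0.408 to 0.729. All val1 libraries were above all wild-type libraries on 4 of 7 days, and the difference averaged a log2 of 0.62 (SE 0.11). Such low values depend on the constant added before taking logs, and with 0.1 in place of 0.5 the average was 1.26.
RGF1 fell from day 12 to day 17 in val1 by 1.19 on the log2 scale (limma adjusted p = 0.000492). A second deposited sheet, whose normalization is not given and in which 53.1% to 76.4% of the values of a library are 0, was used as an alternative, and on it the val1 change of RGF1 did not pass (-0.53, limma adjusted p = 0.318). In wild type the change over that interval was -0.79 (limma adjusted p = 0.0313), a call that was lost on the second sheet (-0.023), without rescaling (adjusted p = 0.0997), with 1 added before logs (adjusted p = 0.0705) and when single libraries were left out (adjusted p from 0.0658 to 0.123 for replicates 1 and 3 of day 12 and replicates 1 and 2 of day 17). Neither genotype passed the threshold from day 7 to day 12, at 0.50 in wild type (limma adjusted p = 0.121) and 0.30 in val1 (limma adjusted p = 0.365). In wild type that interval passed without the unnumbered day 12 library (0.72, limma adjusted p = 0.0452) and with 0.1 added before logs (1.21, limma adjusted p = 0.0387).

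**Figure D1:**
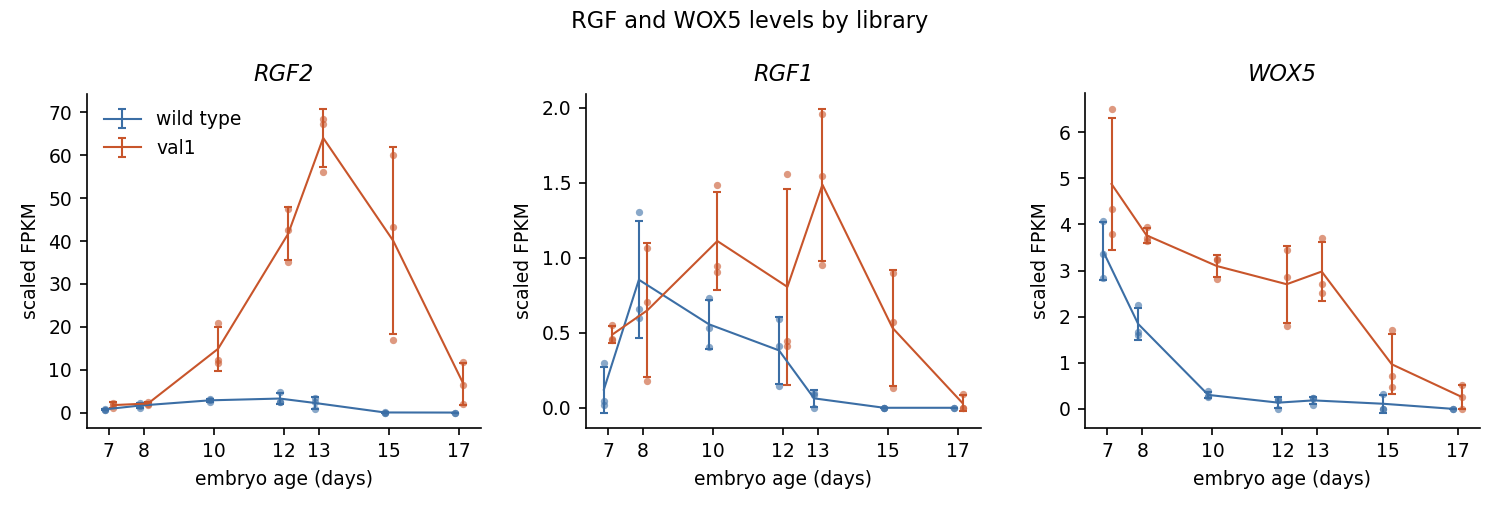
Scaled FPKM of RGF2, RGF1 and WOX5 (vertical axes, different in each panel) against embryo age in days. Points are libraries, lines join group means and bars are SD over 3 libraries (2 for wild type at day 17). RGF2 in val1 peaked at a mean of 64.1 at day 13 against 2.24 in wild type, and WOX5 was 2.98 in val1 and 0.184 in wild type on that day.

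WOX5 (AT3G11260, chr3:3527280-3528440, plus strand, 2 exons) encodes the quiescent centre homeobox factor. In wild type it read 4.08, 3.35 and 2.83 scaled FPKM at day 7 and 2.25, 1.67 and 1.61 at day 8. It read 0.381, 0.247 and 0.282 at day 10, and 0.187, 0.220 and 0 at day 12. The wild-type level had thus dropped to under 0.4 by day 10 and stayed there, with 2 of 3 libraries at 0 at day 15 and both at 0 at day 17.
In val1 WOX5 read 4.33, 6.51 and 3.79 scaled FPKM at day 7 and 3.94, 3.64 and 3.71 at day 8. It read 3.22, 3.25 and 2.83 at day 10, 3.45, 1.80 and 2.86 at day 12, and 3.71, 2.71 and 2.51 at day 13. At day 15 it read 1.71, 0.477 and 0.720, and at day 17 it read 0.254, 0 and 0.521. Val1 libraries overlapped wild type at days 7 and 17 and lay above every wild-type library on the 5 days between.
The mean of val1 was 2.04-fold that of wild type at day 8, 10.2-fold at day 10, 19.9-fold at day 12 and 16.2-fold at day 13, with wild-type values so low that the folds from day 10 on rest on fractions of an FPKM. The log2 difference averaged 1.41 (SE 0.10), and 2.24 with 0.1 or 1.05 with 1 as the added constant and 1.77 on the second sheet. On the log2 scale it was 2.32 (SE 0.26) at day 12, and 3.70 with 0.1 or 1.68 with 1 as the added constant.
From day 7 to day 12 WOX5 fell in wild type by 2.63 on the log2 scale (SE 0.26, limma adjusted p = 7.33e-11) and in val1 by 0.75 (SE 0.26, limma adjusted p = 0.00919). The val1 call was lost with 0.1 as the added constant (adjusted p = 0.135), on the second sheet (-0.56, limma adjusted p = 0.202) and without val1 replicate 2 of day 7 (-0.54, limma adjusted p = 0.0785) or replicate 3 of day 12 (-0.53, limma adjusted p = 0.0867). From day 12 to day 17 WOX5 fell in val1 by 2.10 (limma adjusted p = 7.71e-09), and the wild-type change of -0.33 did not pass (limma adjusted p = 0.307). The difference between the genotypes in these changes is part of the contrast that chose the genes and was not tested.

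PLT2 (AT1G51190, chr1:18977176-18980618) and PLT1 (AT3G20840, chr3:7300444-7303693) are the pair that specifies the root stem cell niche. PLT2 was low, with wild-type libraries of 0.992, 1.44 and 1.89 scaled FPKM at day 7 and val1 libraries of 2.46, 2.12 and 2.93. At day 15 wild type read 1.07, 0.469 and 0.619 against 1.33, 1.72 and 1.20 in val1, and at day 17 wild type read 0.167 and 0.350 against 1.14, 0.631 and 0.713. Val1 lay above wild type without overlap on 5 of 7 days, namely 7, 8, 10, 15 and 17, and the groups met at days 12 and 13.
The log2 difference of PLT2 averaged 0.48 (SE 0.07). It was 0.04 (SE 0.19) at day 13 and 0.80 (SE 0.21) at day 17, the latter being 0.49 without rescaling, 1.38 with 0.1 added before logs and 0.53 with 1. On the second sheet the difference averaged 0.44, with every wild-type library at 0 at all 7 ages. The difference was 1.76 there at day 7. In val1 1 library was at 0 at day 7, 1 at day 8 and 2 at day 10. At days 12, 13, 15 and 17 every library was at 0, and so was the difference. PLT2 fell from day 12 to day 17 in wild type by 1.01 on the log2 scale (limma adjusted p = 6.37e-05) and in val1 by 0.56 (limma adjusted p = 0.00802, and 0.0528 without val1 replicate 2 of day 17). From day 7 to day 12 it fell in val1 by 0.63 (limma adjusted p = 0.00293), and the wild-type change of -0.33 did not pass (limma adjusted p = 0.108) unless replicate 1 of day 7 was left out (-0.50, limma adjusted p = 0.0238) or the values were not rescaled (-1.25, limma adjusted p = 5.52e-06). On the second sheet PLT2 was at 0 in every library of days 12 and 17, and both later falls lost their call.
PLT1 fell steadily in both genotypes, from a mean of 2.22 scaled FPKM at day 7 to 0.365 at day 17 in wild type and from 2.63 to 0.261 in val1. At day 12 its wild-type libraries read 1.21, 1.12 and 1.20 and its val1 libraries 1.27, 1.86 and 1.54. At day 13 they read 0.919, 1.07 and 1.09 in wild type and 1.22, 1.46 and 1.43 in val1. These were the 2 days without overlap. The val1 mean was above that of wild type on each day up to 15 and below it at day 17, and the average difference was 0.17 (SE 0.06) on the log2 scale.
Between days 12 and 17 PLT1 fell by 0.96 in wild type (limma adjusted p = 2.84e-06) and by 1.43 in val1 (limma adjusted p = 1.38e-10) on the log2 scale. Between days 7 and 12 it fell by 0.68 and by 0.61 (limma adjusted p = 9.01e-05 and 0.00035). On the second sheet PLT1 was at 0 in every library from day 12 on, so both later falls lost their call, as did the earlier wild-type fall (-0.96, limma adjusted p = 0.223).

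BBM (AT5G17430, chr5:5742393-5745748, minus strand) was present at 6.90 to 26.7 scaled FPKM throughout. Its wild-type libraries read 16.2, 19.2 and 26.7 at day 7, 19.2, 8.16 and 15.5 at day 12, and 6.99 and 6.90 at day 17. Its val1 libraries read 22.2, 15.5 and 24.6 at day 7, 15.3, 18.8 and 20.0 at day 12, and 14.5, 11.9 and 17.7 at day 17. The genotypes overlapped until day 13, and val1 lay above wild type at day 15 by a narrow margin and at day 17 by 2.12-fold.
The log2 difference of BBM was 0.01 (SE 0.22) at day 7, 0.01 (SE 0.22) at day 13 and 1.01 (SE 0.24) at day 17, and averaged 0.32 (SE 0.08). Without rescaling the day 17 difference was 0.62. On the second sheet it was 0.77, but the average there was 0.092 and the day 7 difference was -1.29, with a val1 library as low as 0.476 at day 7. At day 17 the summed level of the 5 embryo markers LEC1, LEC2, FUS3, ABI3 and WOX2 was also lower in wild type. It was 63.7 to 64.3 scaled FPKM against 102 to 134.5 in val1. LEC1 and LEC2 were at 0 in both genotypes at that age, so the sum came from 3 genes. Their means in wild type and val1 were 54.0 and 85.5 for ABI3, 9.11 and 26.8 for FUS3, and 0.880 and 5.08 for WOX2. The part of these marker differences in the day 17 differences of BBM and PLT2 was not tested.
BBM changed with age in wild type (limma F test over 7 ages, adjusted p = 5.95e-05) and did not pass in val1 (adjusted p = 0.301). It fell from day 12 to day 17 in wild type by 0.91 on the log2 scale (limma adjusted p = 0.00121), and the val1 change of -0.30 did not pass (limma adjusted p = 0.219). The smaller wild-type change from day 7 to day 12, -0.57 (limma adjusted p = 0.018), rested on single libraries and was -0.23 (limma adjusted p = 0.315) without replicate 3 of day 12 and -0.38 (limma adjusted p = 0.145) without replicate 3 of day 7. On the second sheet neither wild-type change passed, at -1.001 from day 12 to day 17 (limma adjusted p = 0.213) and -0.54 from day 7 to day 12 (limma adjusted p = 0.455). The val1 value from day 7 to day 12 was 1.06 there and -0.18 on the FPKM, and neither passed. Without rescaling, both val1 changes passed, at -1.33 (limma adjusted p = 6.06e-07) and -0.66 (limma adjusted p = 0.00565).

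PLT3 (AT5G10510, listed in RefSeq as AIL6), PLT5 (AT5G57390, AIL5) and PLT7 (AT5G65510, AIL7) are the members known from lateral root and shoot organ positioning. PLT3 and PLT5 had the highest peaks of the 9 genes. PLT3 rose over both intervals tested, PLT5 rose and then fell, and PLT7 fell. PLT3 read 34.9, 36.6 and 42.8 scaled FPKM in wild type at day 7 and 38.7, 32.97 and 40.7 in val1. By day 15 it read 113, 95.5 and 100 in wild type and 85.3, 102 and 79.8 in val1. The genotypes overlapped on 5 of 7 days, with val1 lower at day 13 (52.0 to 56.2 against 61.2 to 69.4) and higher at day 17 (85.7 to 99.2 against 75.4 and 84.5).
From day 7 to day 12 PLT3 rose by 0.59 in wild type (limma adjusted p = 3.05e-05) and by 0.42 in val1 (limma adjusted p = 0.0014) on the log2 scale, but without rescaling these became falls of -0.66 and -0.73, so that the direction holds only relative to the bulk of genes. From day 12 to day 17 it rose by 0.47 (limma adjusted p = 0.00143) and by 0.87 (limma adjusted p = 4.02e-08), but on the second sheet the wild-type value was -0.058 and did not pass (limma adjusted p = 0.862).
At day 7 PLT5 read 29.97, 35.7 and 41.2 scaled FPKM in wild type against 36.7, 32.7 and 39.2 for val1, and at day 12 it read 107, 86.0 and 107 against 112, 102 and 109. By day 17 it had declined to 67.5 and 63.2 in wild type against 93.0, 70.7 and 73.7 for val1. The rise was 1.48 in wild type and 1.56 in val1 on the log2 scale (limma adjusted p = 1.73e-13 and 5.17e-14), and the fall 0.60 and 0.45 (limma adjusted p = 6.51e-05 and 0.000515). Without rescaling the wild-type rise was 0.22 and did not pass (limma adjusted p = 0.224).
The average difference between genotypes was 0.01 (SE 0.04) for PLT5 and -0.07 (SE 0.04) for PLT3 on the log2 scale. Both of these genes hold the RY motif in the window around the start, and a link between motif and level was not tested for any gene.
At day 7 PLT7 read 8.52, 10.8 and 12.0 scaled FPKM in wild type against 9.62, 6.92 and 9.81 for val1, and at day 17 it read 3.22 and 2.36 against 2.25, 2.46 and 1.22. The genotypes did not overlap at day 13 alone, when val1 was lower by a margin of under 0.1 scaled FPKM. The falls from day 7 to day 12 were 1.05 and 0.86 on the log2 scale (limma adjusted p = 3.55e-05 and 0.000408). On the second sheet neither passed, at -0.78 in wild type (limma adjusted p = 0.346) and 0.58, the opposite sign, in val1 (limma adjusted p = 0.494). There 1 val1 library of day 7 was at 0. The later fall was 1.07 in val1 (limma adjusted p = 2.43e-05) and 0.68 in wild type (limma adjusted p = 0.00864), the wild-type call being lost without replicate 3 of day 12 (-0.55, limma adjusted p = 0.0509) or replicate 2 of day 17 (-0.49, limma adjusted p = 0.135), without rescaling (-0.62, limma adjusted p = 0.0801) and over reference transcripts alone (-0.43, limma adjusted p = 0.0573).

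**Figure D2:**
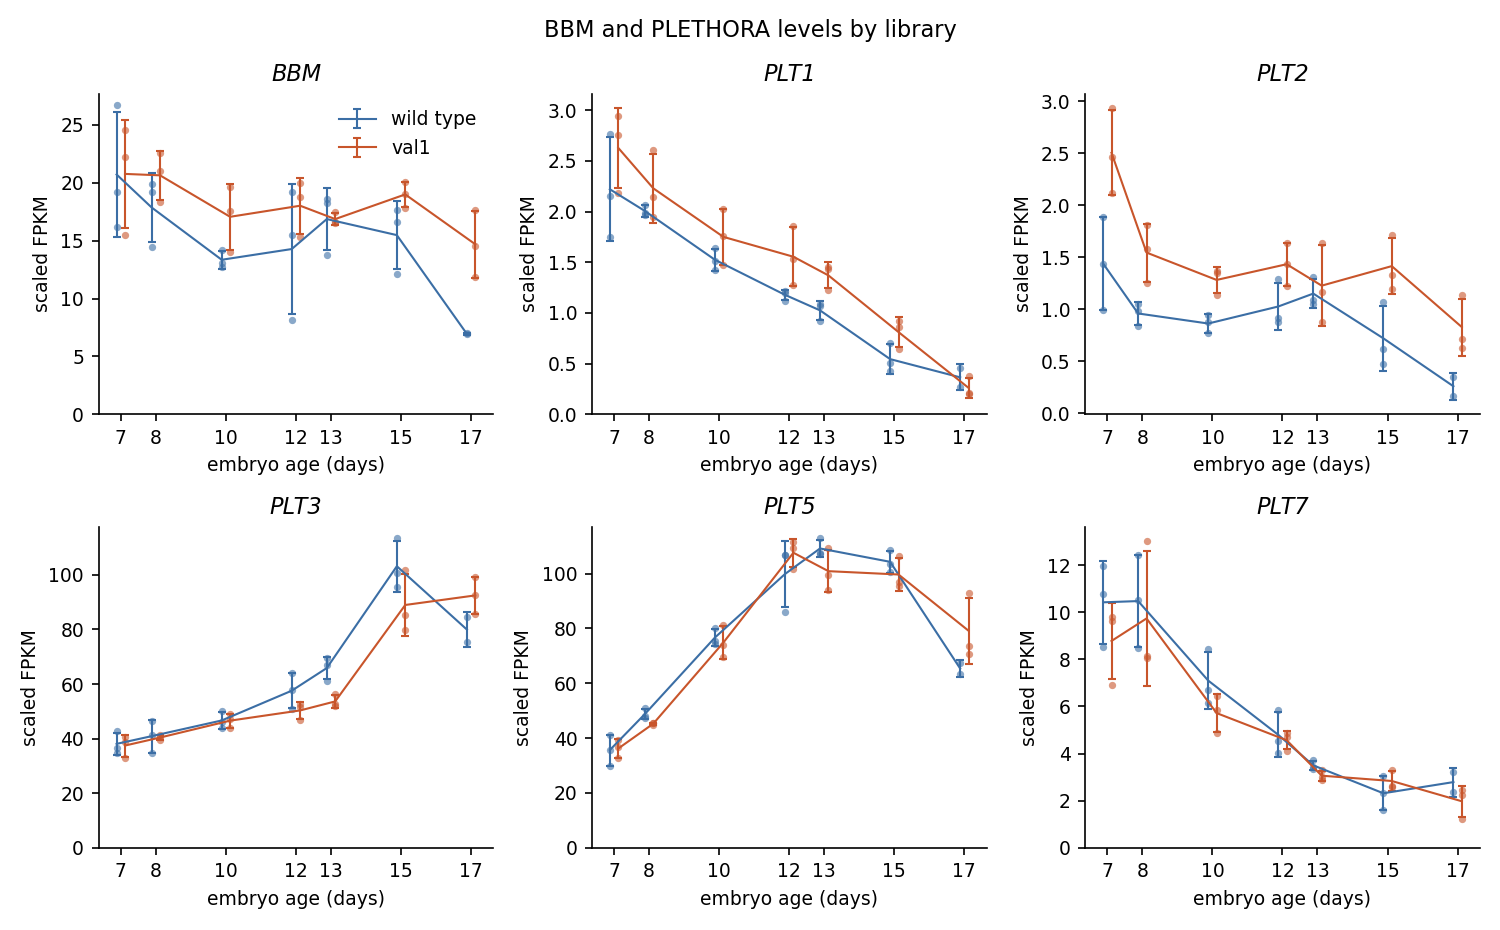
Scaled FPKM of BBM and 5 PLETHORA genes (vertical axes, different in each panel) against embryo age in days. Points are libraries, lines join group means and bars are SD over 3 libraries (2 for wild type at day 17). The mean of PLT5 at day 12 was 99.8 in wild type against 108 for val1, relative to the bulk of genes, and BBM at day 17 was 6.94 in wild type and 14.7 in val1.

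Counted over the 9 genes, 3 rose and 4 fell from day 7 to day 12 in wild type, beside 35.7% and 39% of all genes tested. The same counts held in val1, beside 36.3% and 38.1%. From day 12 to day 17 only PLT3 rose and 7 of 9 fell in each genotype, beside 33.7% higher and 39.3% lower in wild type and 33.4% and 41.3% in val1. The median log2 change of the 9 genes over this interval was -0.79 in wild type and -1.07 in val1, beside -0.10 and -0.12 over all genes tested. PLT1, PLT2, PLT5, PLT7, RGF1 and RGF2 fell in both genotypes, WOX5 was called in val1 and BBM in wild type. On the second sheet 3 of 9 fell in wild type and 4 of 9 in val1, beside 29.8% and 33.7% of all genes there, with PLT5, PLT7 and RGF2 called in both genotypes, and the wild-type rise of PLT3 was not called. Without rescaling 5 of 9 fell in wild type and 8 of 9 in val1, beside 34.9% and 45.1%. The share of these genes that fell thus depends on the sheet used. Any change over the 7 ages was called for 9 of 9 genes in wild type and 8 of 9 in val1, beside 95.3% and 95.7% of all genes.
Without rescaling, the median of all genes from day 7 to day 12 moved to -1.07 in wild type and -0.98 in val1, and from day 12 to day 17 in val1 to -0.35. The share of calls that were higher then went from 47.8% to 15.4%, from 48.8% to 16.8% and from 44.7% to 32.4%. Changes with age are for this reason stated relative to the bulk of genes.

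**Figure D3:**
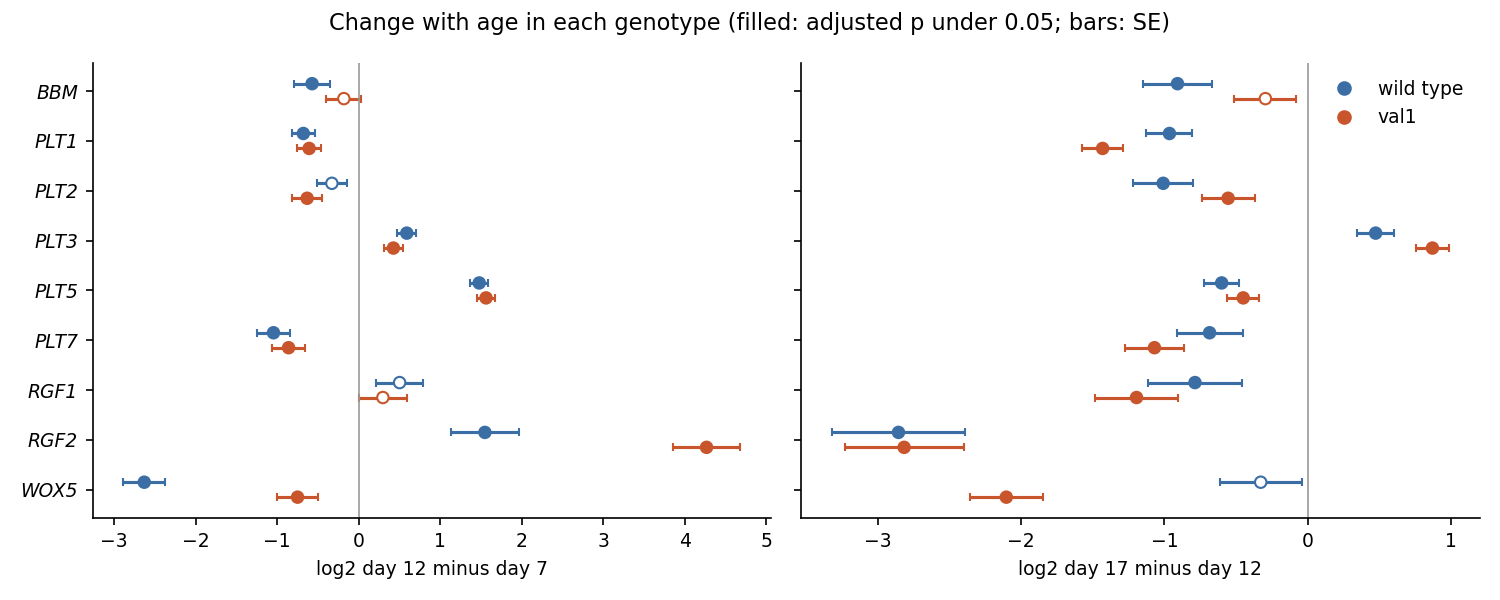
Log2 change of each gene from day 7 to day 12 (left) and from day 12 to day 17 (right) in each genotype, with bars of 1 SE and filled points where the adjusted p was under 0.05. RGF2 rose by 4.26 in val1 and 1.55 in wild type in the first interval, and PLT3, whose first-interval sign reverses without rescaling, alone rose in the second.

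The genotype differences varied in size. With 0.5 added before logs, RGF2 and WOX5 differed by a log2 of more than 1 on average. RGF1, PLT2 and BBM differed by 0.32 to 0.62 (RGF1 by 1.26 with 0.1 added), and PLT1, PLT3, PLT5 and PLT7 by -0.15 to 0.17. On the second sheet the averages of RGF1, PLT2 and BBM were 0.39, 0.44 and 0.092, that of PLT2 against wild-type libraries all at 0. Val1 libraries lay above all wild-type libraries on 6 of 7 days for RGF2 and on 5 for WOX5 and PLT2, a condition met on at least 5 days by 3.4%, on at least 6 days by 1.82% and on all 7 days by 0.756% of all genes tested. Since this contrast was known when the genes were picked, nothing is read from these counts. By day, 3 of the 9 genes lay above at day 7 (7.05% of all genes), 2 at day 8 (7.6%), 4 at day 10 (11.6%), 3 at day 12 (14.2%), 4 at day 13 (17.6%), 5 at day 15 (14.6%) and 5 at day 17 (22.9%). Val1 libraries all lay below wild type for 1 gene at day 8 (5.88% of all genes) and 2 at day 13 (14.9%), and for 0 at days 7, 10, 12, 15 and 17 (7.52%, 10.4%, 11.9%, 11.1% and 20.1%).
In the authors' deposited table of transcripts, 5 of the 9 genes appeared. Its header gives neither direction nor log base, and its values were read as log2 val1 minus wild type because, over 848 to 1928 transcripts a day at 10 FPKM or more in every library, they had slopes of 0.994 to 1.01 on that difference in the FPKM. In the authors' deposited table the differences ranged over the 7 days from 0.43 (day 8) to 9.10 (day 15) for RGF2, the latter against wild-type libraries at or near 0, and from 0.39 to 4.37 for WOX5. They ranged from 0.088 to 1.70 for PLT2 and, over the 2 transcripts of each gene in the authors' deposited table, from 0.0075 to 1.09 for BBM and from -0.89 to 3.96 for RGF1, whose 2 values at day 8 were both negative.

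**Figure D4:**
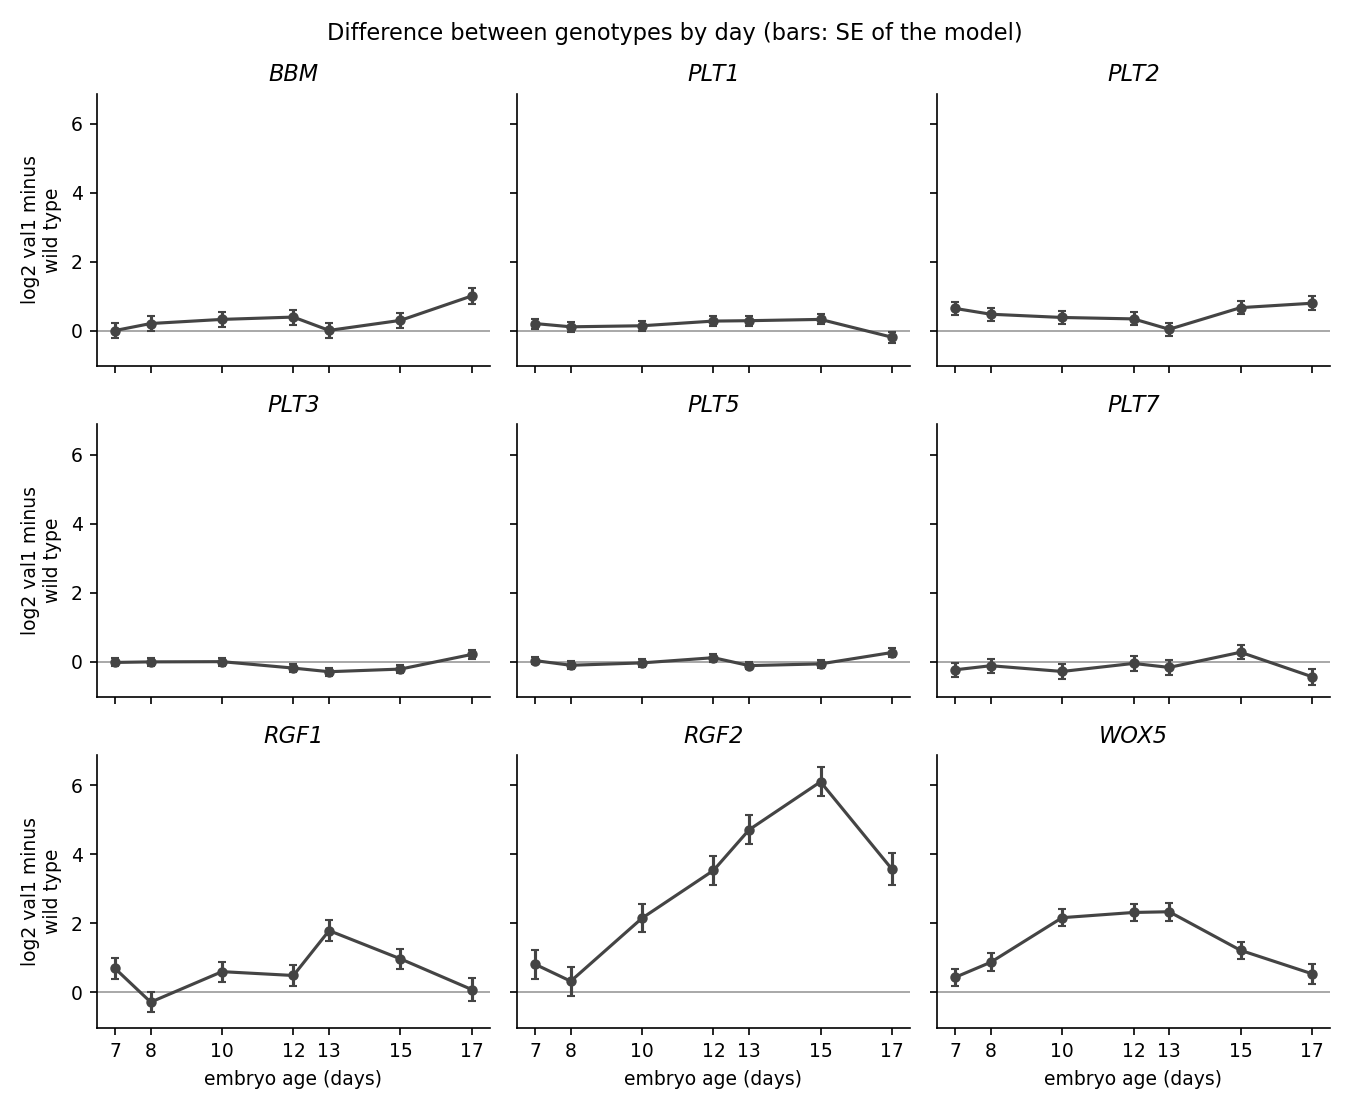
Log2 difference between val1 and wild type (vertical axis, same in all panels) against embryo age in days for the 9 genes, with bars of 1 SE from the model. RGF2 reached 6.101 at day 15 with 0.5 added before logs (8.21 with 0.1 and 5.15 with 1), WOX5 was 2.32 at day 12 (3.70 and 1.68), and PLT3 and PLT5 stayed within 0.30 of 0.

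The checks of the material were as follows. VAL1 lay lower in val1 than in wild type on 7 of 7 days, at 0.701 to 7.27 against 5.59 to 20.8 scaled FPKM over all ages. Of the 5 embryo markers, FUS3 and ABI3 were above 0 in all 41 libraries, and LEC1 was at 0 in 15, LEC2 in 17 and WOX2 in 11. The summed level of 8 endosperm markers was at most 10.1 scaled FPKM at day 7 and at most 0.527 from day 10 on, with FWA, FIS2, MEA, PHE1 and MPC under 1 in every library. The summed level of 8 seed coat markers reached 16.0 at day 7. At day 12 it lay at 0.990 to 6.47 in wild type and 1.01 to 3.48 in val1. At day 13 it lay at 0.151 to 1.13 in wild type and 1.16 to 2.19 in val1. On that day RGF2 stood at 56.2 to 68.6 in val1. The part of seed coat RNA in the day 12 and day 13 differences, or in changes with age, was not tested. At day 15 the seed coat sum was at most 0.178 in wild type and 0.0642 in val1, where RGF2 was 16.9 to 60.1.

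The genes differed in how their transcripts were assembled. BBM was the sum of the reference transcript and of an assembled extension that took 51.0% of its FPKM. PLT3 was the sum of 6 transcripts, of which an assembled form held 53.1%, and PLT7 that of 3. PLT1, PLT2, RGF2 and WOX5 had 1 transcript each. Over the 14 group means, PLT1 went against PLT3 (Pearson r = -0.945) and with PLT7 (r = 0.904), which describes their courses with age and carries no test. Over the 7 ages of val1 alone, RGF2 went with PLT5 (r = 0.929) and WOX5 with PLT1 (r = 0.984). In wild type the same pairs had r = 0.125 and 0.833. Other pairs were similarly strong, such as PLT3 with PLT7 over the 14 groups (r = -0.931) and PLT3 with WOX5 in val1 (r = -0.963). No rule set in advance chose the named pairs.
The genes outside the set whose courses over the 14 groups were most like RGF2 were PSK4 (r = 0.971), which encodes the precursor of another sulfated peptide, GSTU23 (r = 0.953) and AT5G55370 (r = 0.953). Those most like WOX5 were AT5G67510 (r = 0.980), BZIP61 (r = 0.950) and the abscisic acid receptor gene PYL4 (r = 0.943). For PLT1 they were AT1G31860 (r = 0.992), AT3G03010 (r = 0.991) and ADK2 (r = 0.991). The candidates were 13358 genes that reached 5 scaled FPKM in some group, and the points share libraries and age.

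Other members of the same families and pathways were measured too. Their lists were also chosen with results of these libraries known, so the counts and p-values that follow are no independent evidence of a direction. Of 7 further RGF genes 4 passed the filter, and RGF3 was higher in val1 by 0.81 on the log2 scale averaged over the ages (SE 0.11, limma adjusted p = 3.88e-07), with none of the 4 lower by limma at an adjusted p under 0.05 and 0 at an unadjusted p under 0.05. Over all genes tested 19% were higher and 13.1% lower by this average. RGF3 had a mean of 11.3 scaled FPKM at day 13 in val1 against 6.49 in wild type, and 10.0 against 1.36 at day 15. At day 17 the means were 3.21 and 0.127. At day 8 val1 lay lower without overlap, at 2.11 to 3.13 against 3.22 to 3.97. The genotypes overlapped at days 7, 10 and 12. RGF4 had a difference of 0.11 (limma adjusted p = 0.545), RGF8 of 0.26 (limma adjusted p = 0.0931) and RGF5 of -0.16 (limma adjusted p = 0.191).
Of 13 genes of peptide sulfation, perception and response, 12 passed the filter, 2 were higher and 1 lower in val1. SERK1, a co-receptor kinase, was higher by 0.31 (limma adjusted p = 0.000224) and the receptor kinase gene AT3G24240 by 0.15 (limma adjusted p = 0.0314), and the receptor kinase gene AT5G56040 was lower by 0.18 (limma adjusted p = 0.0389). TPST, which sulfates the peptides, had a difference of 0.08 (limma adjusted p = 0.383). The median of the 12 was 0.05, beside 0.01 over all genes.
Of 14 other WOX genes 8 passed the filter, and 5 were higher and 0 lower in val1 by limma, with 0 lower also at an unadjusted p under 0.05. WOX8, a gene of the basal embryo lineage, is 1 of the 5, but it reached 1 FPKM in 1 wild-type library and 3 val1 libraries and so passed the filter through val1, and nothing is read from its difference. WOX2, a gene of the early apical embryo that is also in the embryo marker list, was higher by 1.33 (SE 0.08, limma adjusted p = 1.36e-14) and WOX3 by 0.72 (SE 0.08, limma adjusted p = 9.13e-09). In wild type WOX2 was listed at 0 in each library of days 10, 12 and 13, and in val1 its means were 1.33, 0.836 and 0.770 scaled FPKM on those days. The median of the 8 was 0.25.
Of 26 regulators of the root pole and root cap 20 passed the filter, and 7 were higher and 1 lower in val1. MP, the auxin response factor that starts the root, was higher by 0.55 (limma adjusted p = 6.66e-07), the cyclin gene CYCD6;1 by 0.49 (limma adjusted p = 2.74e-05) and the root cap gene SMB by 0.43 (limma adjusted p = 0.000517). LHW, a factor of vascular cell divisions, was lower by 0.21 (limma adjusted p = 0.00135). With age, 18 of the 20 fell from day 12 to day 17 in each genotype and 0 rose by limma, also at an unadjusted p under 0.05, with a median of -2.14 in wild type and -2.07 in val1. Over all genes tested 39.3% and 41.3% fell, with medians of -0.10 and -0.12.
Of 9 auxin synthesis genes 5 passed the filter, 4 were higher in val1 and 0 lower by limma, also at an unadjusted p under 0.05, with YUC4 at 0.49 (limma adjusted p = 0.000772), YUC3 at 0.33 (limma adjusted p = 0.000128) and TAR2 at 0.28 (limma adjusted p = 0.013). All 5 fell from day 12 to day 17 in both genotypes, beside the 39.3% and 41.3% of all genes. Of 2 further relatives of the PLETHORA genes, ANT and AIL1 (AT1G72570), 2 passed the filter, and 1 was higher and 0 lower in val1. ANT was higher by 0.41 (limma adjusted p = 2.84e-05), and AIL1 had a difference of -0.11 (limma adjusted p = 0.454).

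**Figure D5:**
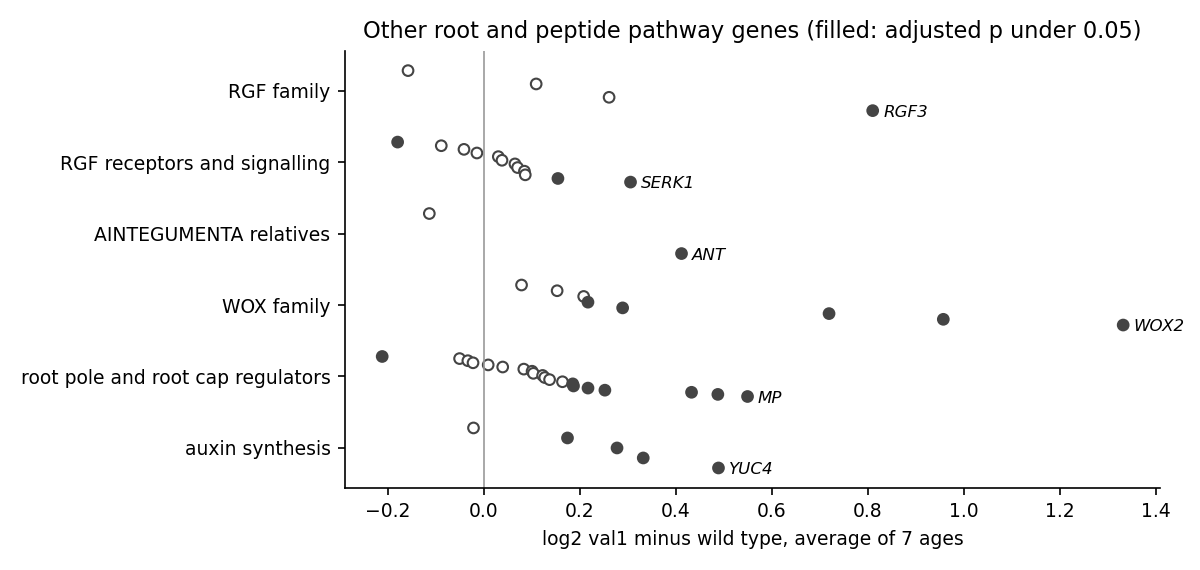
Log2 difference between val1 and wild type averaged over 7 ages for other genes of 6 lists (rows), each point a gene that passed the filter and filled where the adjusted p was under 0.05. The gene with the highest value in each list is named, from SERK1 at 0.31 to WOX2 at 1.33.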

How the data were processed

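RNA-seq of embryos was measured in 41 libraries. FPKM values per transcript were deposited by the authors, with TopHat2, StringTie and TAIR10 named in the submitters' processing notes. A second deposited sheet headed as counts holds values of which 99.9997% of those above 0 are not whole; it was read as a signal that the authors deposited, with no normalization given in the sources used here, and used only as an alternative, so no count model was run and the depth of each library is unknown. A further deposited table gives differences per transcript, made by the authors and read as log2 from their slope on the FPKM. The cause of zeros in the FPKM sheet is not given in the sources used here.

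Transcripts of class code = or j were summed per gene. FPKM were divided by factors of 0.533 to 2.03 from a trimmed mean of log ratios (30% and 5% trimmed) and tested as log2(value + 0.5) with limma 3.58.1 (R 4.3.3) on 14 group means with 27 residual degrees of freedom, for the 18389 genes that reached 1 FPKM in 2 or more libraries. P-values were Benjamini-Hochberg adjusted over all genes tested, with calls under 0.05. The fit was tested on simulated data. The 4 library columns marked as replacements carry number 1 in their header, at days 8 and 12 of each genotype. They were assigned to their group without a number. Those libraries differed from number 1 of their group by an SD of 0.330 to 0.442 on the log2 scale. Over all 40 pairs of a group the SD was 0.299 to 0.572. That range cannot show whether they are technical replicates, since the spread of a technical pair is not known. The series design names 4 technical replicates without saying which libraries they are. The replacement libraries were counted as separate. If they are technical, the day 8 and day 12 groups hold fewer independent samples than libraries. Each day 12 group holds 1 replacement library and enters the tests between 2 ages, so those p-values may rest partly on technical replicates. Equal replicate numbers were not taken as pairs, since 3 of 18 same-day pairs correlated under 0.1, and the fit does not use the correlation of the other 15.

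The genes and lists were chosen with earlier results of these data known. All 9 genes are named, and in other lists at most 3 called genes in each direction by size. Uncalled RGF genes, TPST and AIL1 are named beside them, added after their values were seen. As most alike, the 3 genes with the highest r are named. Differences of the 9 genes between genotypes were not tested. Alternatives were the scaling, the added constant, the filter, the transcript classes, the second sheet, the replicate block and leaving out each library.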

Additional observations from a re-analysis of the deposited data

Results flagged for a closer look

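PLT3 and PLT5 lay below wild type in every val1 library on an earlier day (13 and 8) and above in every val1 library at day 17. For PLT3 the log2 difference was -0.29 at day 13 and 0.21 at day 17. For PLT5 it was -0.11 at day 8 and 0.26 at day 17. The difference between days was not tested. Without rescaling the day 17 values were -0.18 and -0.13, so the sign at day 17 depends on the scaling.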

How the results depend on the processing

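The number of genes called for val1 against wild type averaged over the ages went from 5892 to 2780 on the second deposited sheet, in which 53.1% to 76.4% of values per library are 0. The other counts of called genes stayed within 1.5 times under each alternative run. Without rescaling, PLT3 from day 7 to day 12 turned to -0.66 in wild type and -0.73 in val1. On the second sheet PLT3 from day 12 to day 17 in wild type turned to -0.058 (limma adjusted p = 0.862). PLT7 from day 7 to day 12 in val1 turned to 0.58 (limma adjusted p = 0.494), and neither passed. With these, 13 of the 36 age tests of the 9 genes lost their call. On that sheet 1 val1 library of day 7 was at 0 for PLT7. PLT1 and PLT2 were at 0 there in every library of days 12 and 17. The cause of the lost calls was not tested. With the replicate block, fitted on the 37 numbered libraries, the count of genes differing on average went from 5892 to 5419, and to 6997 with a block within each day, a fit chosen after seeing the data. Of 18 same-day pairs of equal number 15 correlated above 0.1 (range -0.26 to 0.60), including every pair of days 7 to 13, and 3 of days 15 and 17 did not, so the numbers were not taken as pairing the genotypes throughout, although samples of equal number deviated together on the earlier days; the block changed RGF1 from day 7 to day 12 in wild type to 0.75, now past the threshold, and no other of the 36. Leaving out 1 library at a time gave 5275 to 6289 genes on average. Of 1476 age tests of the 9 genes so refitted, 11 lost and 2 gained a call. Depth is unknown, so values under about 1 FPKM are the least certain.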

Other observations

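AT1G72570, an AINTEGUMENTA relative, was at 0 in wild type at days 7 and 8 and had means of 24.0, 76.9, 134 and 27.003 scaled FPKM at days 12, 13, 15 and 17, against 12.8, 34.5, 113 and 67.9 in val1. From day 7 to day 12 it rose by 5.60 in wild type and 4.71 in val1 on the log2 scale (limma adjusted p = 6.17e-18 and 5.96e-16). ANT went the other way, from 33.5 scaled FPKM at day 7 to 1.22 at day 12 in wild type and from 40.7 to 2.18 in val1 (log2 -4.30 and -3.93, limma adjusted p = 1.9e-19 and 2.68e-18).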
